A study of Ovis aries with 12 samples.

Results

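Genes that answer stress in the endoplasmic reticulum (ER), shortage of amino acids and heat were followed in oviduct mucosal epithelial cells of sheep (Ovis aries) after oestradiol (E2), the main ovarian oestrogen. The genes were taken from a list of 42 symbols in 3 groups. The ATF4 group holds the transcription factor ATF4 with its targets and partners (19 listed), the unfolded protein response group holds ER chaperones and degradation genes with the regulators ATF6 and XBP1 (12 listed), and the heat shock group holds chaperones of the cytosol and mitochondria with their regulator HSF1 (11 listed). A gene was a member when its symbol named a row of the authors' gene table, which gave 33 members among 18340 genes, with 15, 11 and 7 in the 3 groups. XBP1, DNAJB1, PPP1R15A, MTHFD2 and HSF1 had rows without a symbol that were matched through their NCBI gene ID. These 5 are described beside the members and are not counted among them. ATF5, CEBPB, HSPE1 and DNAJA1 were not matched and are not analysed here.

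The cells were taken from the ampulla, the wide middle stretch of the oviduct, by scraping after trypsin. All 12 libraries share 12 h of starvation without serum or phenol red, and E2 was given at 1e-08 M. RNA was taken at 0 h (T0) and after 1.5 h (T1), 3.5 h (T2) and 5.5 h (T3), with 3 libraries per time that carry the numbers 1 to 3. The labels name no strain, age or number of ewes, and untreated cells at the later times are not analysed here, so time in culture and E2 cannot be told apart. Nothing in the labels tells if libraries are separate cultures or animals, and p-values cover only the differences among these libraries, which may be technical.

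When amino acids run short or unfolded protein builds up in the ER, kinases slow protein synthesis as a whole while translation of ATF4 increases. ATF4 then switches on enzymes of serine and asparagine synthesis and amino acid transporters. Unfolded protein also releases the membrane-bound factor ATF6 and starts the splicing of XBP1 mRNA, and both factors raise chaperones and degradation genes of the ER. HSF1 does the same for chaperones of the cytosol. ATF4 is set largely by translation, XBP1 by splicing and HSF1 by changes to the protein, none of which a gene count records. The authors' transcript table lists 1 transcript of XBP1, so its spliced and unspliced forms were not told apart.

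Libraries held 48490974 to 79387070 counts in genes, and 3 counts, taken as the detection floor, equal 0.0374 to 0.061 CPM (counts scaled to library size), a limit that covers counting error only. Epithelial markers found in the table (6 of 8) summed to 12802 to 16427 CPM. Of the cilium genes, FOXJ1, CCDC39 and DNAH5 stayed at or below 0.25, 0.448 and 0.163 CPM. RSPH1 and TPPP3, also of that list, lay at 10.7 to 17.55 and 10.31 to 37.3 CPM. Of the oviduct secretory genes, OVGP1 and MSX1 lay at 0.241 to 2.74 and 2.11 to 6.06 CPM, but PAX8 and SPP1 at 167 to 293 and 17925 to 24397 CPM. Libraries numbered 3 stood apart from the rest at 0, 3.5 and 5.5 h, with scores of 52.9, 49.98 and 57.1 on a first principal component that held 44.1% of the variance. The 1.5 h library numbered 3 lay at 5.26, and those numbered 1 and 2 lay between −29.3 and −13.3. For that reason the times were also compared in numbers 1 and 2 alone, and the comparison of numbers was repeated without single libraries. Values of single libraries stand below in the order number 3, number 1, number 2.

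Compared per transcript length as FPKM (fragments scaled to length and depth), the most abundant of these genes encode chaperones. HSP90AB1 and HSP90AA1, the constitutive and inducible forms of HSP90 in the cytosol, averaged 818 and 801 FPKM over the 12 libraries. CALR, the ER chaperone calreticulin, averaged 636 FPKM, HSPA8, the constitutive HSP70, 460.4 FPKM, ATF4 458 FPKM and HSPA5, the ER chaperone BiP, 350.3 FPKM. At the low end stood DDIT3, the stress factor CHOP, at 3.58 FPKM, VLDLR, a lipoprotein receptor, at 3.5 FPKM and TRIB3, a pseudokinase induced by ATF4, at 3.96 FPKM. SLC7A11, the cystine carrier, averaged 0.43 FPKM with 4 to 136 counts per library. It missed the filter of a mean of at least 1 FPKM, so 32 of the 33 members were tested. Reads of HSPA8, HSP90AA1, HSP90AB1 and HSPD1 may be shared with near-identical copies of these genes. This was not tested, and the levels of these genes are uncertain.

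The groups also differed in how much they varied. The coefficient of variation of CPM over the 12 libraries had a median of 27.3% in the ATF4 group, 17.9% in the unfolded protein response group and 11% in the heat shock group, against 15.5% over the 12025 genes tested. PSAT1, an enzyme of serine synthesis, spanned 26.7 to 219 CPM, an 8.21-fold range. HSPH1, a partner of HSP70, spanned 182 to 228 CPM, a 1.25-fold range. The library with the highest level was the 0 h library numbered 3 for 9 of 14 tested members of the ATF4 group, 3 of 11 of the unfolded protein response group and 0 of 7 of the heat shock group, against 11.6% of all genes tested.

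**Figure D1:**
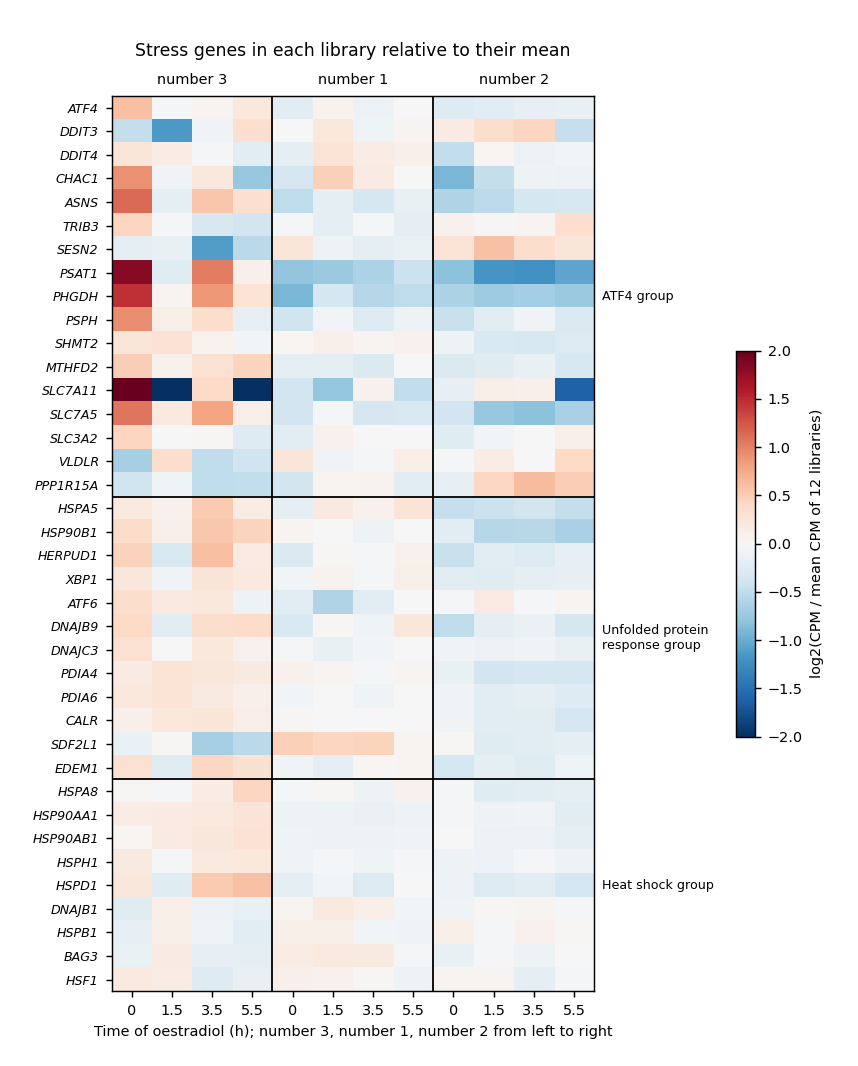
Each row is a gene and each column a library, ordered by number and then by time of oestradiol (h). Colour shows log2 of CPM over the gene's mean CPM in 12 libraries, saturating at 2 in either direction. The 0 h library numbered 3 holds the reddest cell of its row for PSAT1, PHGDH, ASNS and SLC7A5, and rows of the heat shock group are pale.

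The first question was whether the time after E2 changed any of these genes. No tested member passed an adjusted p of 0.05 at 1.5, 3.5 or 5.5 h against 0 h (edgeR quasi-likelihood test, Benjamini-Hochberg over 12025 genes), and the background was 0% of genes at each time. DESeq2 called 0 members, against 0.00832%, 0.0499% and 0.0582% of genes, and DESeq2 blocked by number called 0 as well, against 0.798%, 0.283% and 0.266%. Before adjustment, p was under 0.05 for 0 of 32 members at each time, against 2.39%, 2.16% and 2.1% of genes. No member had 3 libraries all above or all below those at 0 h at any time, while 4.29%, 3.57% and 3.74% of genes were all above and 4.02%, 3.19% and 3.18% all below. With the replicate block edgeR called no member, against 0.00832%, 0% and 0% of genes. Its unadjusted p was under 0.05 for 1 member at 1.5 h (PSAT1, 9.81% of genes), 0 at 3.5 h (6.5%) and 1 at 5.5 h (SDF2L1, 6.51%).

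**Figure D2:**
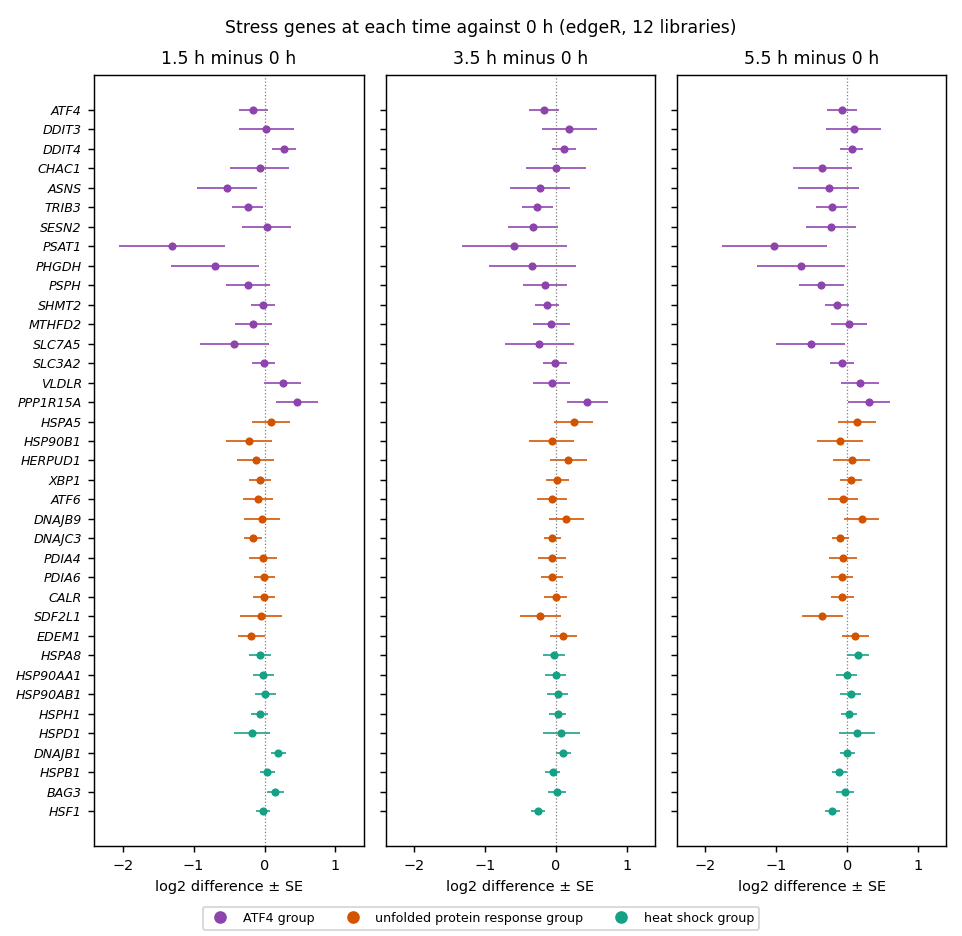
Points are edgeR log2 differences from 0 h at 1.5, 3.5 and 5.5 h, with bars of 1 standard error (SE), for the 32 tested members and the 5 genes matched by ID. Bars are widest for PSAT1, PHGDH and SLC7A5, and narrowest among the heat shock genes.

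ATF4 itself (ENSOARG00000016775, chromosome 3, 214930338 to 214931586, in the authors' coordinates, whose build is not given in the sources used here) had 859.5, 490.1 and 476 CPM at 0 h, 556, 595 and 485 CPM at 1.5 h, 593, 526 and 508 CPM at 3.5 h and 662, 563 and 513 CPM at 5.5 h. The 0 h library numbered 3 was above every other library, and the other 2 at 0 h were at the low end. ATF4 averaged 545 ± 55.7 CPM at 1.5 h and 608.5 ± 217 CPM at 0 h (SD, n = 3 each), a log2 difference of −0.16 ± 0.21 (SE). The differences at 3.5 and 5.5 h were −0.17 ± 0.21 and −0.07 ± 0.21. Without the 0 h library numbered 3 the sign turned, to 0.17 ± 0.14, 0.17 ± 0.14 and 0.26 ± 0.14 at 1.5, 3.5 and 5.5 h (edgeR, adjusted p = 1, 0.998 and 0.997). That fit had no block for number and held number 3 at the later times only, so it mixes time with number. Within numbers 1 and 2 each later library was above its own 0 h library, and within number 3 each was below.

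Among tested members, the serine synthesis genes PSAT1 and PHGDH had the largest coefficients of variation, at 91.3% and 66.7%. PSAT1 (ENSOARG00000012354, chromosome 2, 58082457 to 58109069) had 219, 35.9 and 35.05 CPM at 0 h, 52.65, 37.2 and 27.45 CPM at 1.5 h, 126, 40.2 and 26.7 CPM at 3.5 h and 66.7, 46.0 and 30.0 CPM at 5.5 h. Each library numbered 3 was the highest of its time, and the 0 h one reached 6.18 times the mean of the other 2. The log2 differences from 0 h were −1.31 ± 0.75 (unadjusted p = 0.11), −0.59 ± 0.74 (0.445) and −1.03 ± 0.75 (0.198) at 1.5, 3.5 and 5.5 h (edgeR, adjusted p = 1 at each time). Within numbers 1 and 2 the differences lay between −0.39 and 0.36, while within number 3 they were −2.06, −0.80 and −1.72. Without the 0 h library numbered 3 the fitted differences were 0.14 ± 0.58, 0.86 ± 0.59 and 0.42 ± 0.58 (edgeR, adjusted p = 1, 0.998 and 0.997). That fit had no block for number and held number 3 at the later times only. Time and number therefore cannot be told apart in it.

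PHGDH and PSPH, the first and last enzymes of the same pathway, were named after their values were seen. PHGDH was 46.9 CPM in the 0 h library numbered 3 and 9.05 to 31.1 CPM in the other 11. For PSPH the same library held 134.5 CPM and the others 52.1 to 90.1 CPM. ASNS, which makes asparagine, had 140 CPM there, against 42.5 to 93.7 CPM elsewhere. All 3 genes shared the order of PSAT1, with the 0 h library numbered 3 first and the 3.5 h one second. SHMT2, the mitochondrial enzyme that carries serine into one-carbon metabolism, kept within 42.8 to 64.9 CPM.

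Amino acid transporters followed in part. SLC7A5, the light chain of the large neutral amino acid carrier, had 30 CPM in the 0 h library numbered 3, 16.25, 24.7 and 15.7 CPM in the later libraries numbered 3, and 8.06 to 13.8 CPM in numbers 1 and 2. Its partner SLC3A2, the heavy chain, had 170.3 CPM in the 0 h library numbered 3 and 106 to 135 CPM in the other 11. SLC7A11 held 2.76 CPM in that library and 0.0803 to 0.919 CPM elsewhere, near the detection floor at 1.5 and 5.5 h for number 3, which had 6 and 4 counts. CHAC1, which degrades glutathione, held 13.7 CPM in the 0 h library numbered 3 and 3.85 to 10.1 CPM in the others.

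**Figure D3:**
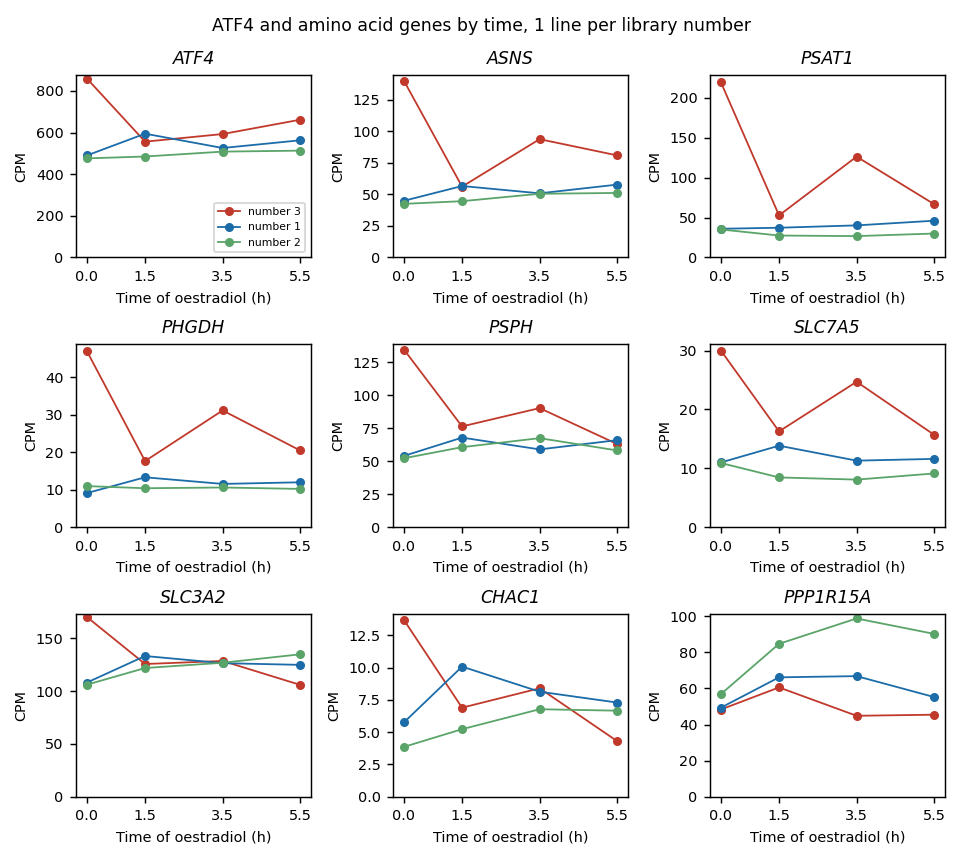
CPM by time of oestradiol (h) for ATF4 and 8 genes of its group, with 1 line per library number and linear axes from 0. Lines of number 3 start high at 0 h for 8 of the genes, PSAT1 at 219 CPM among them, whereas PPP1R15A is highest in number 2 at each time.

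Among stress regulators downstream of ATF4, DDIT3 was lowest at 0 h in number 3 and TRIB3 highest. DDIT3 had 1.605, 2.23 and 2.51 CPM at 0 h, 1.01, 2.59 and 2.86 CPM at 1.5 h, 2.13, 2.115 and 3.01 CPM at 3.5 h and 2.81, 2.33 and 1.63 CPM at 5.5 h, all well above the floor but with overlapping times. TRIB3 had 7.30, 5.34 and 5.75 CPM at 0 h, 5.275, 4.79 and 5.53 CPM at 1.5 h, 4.34, 5.315 and 5.655 CPM at 3.5 h and 4.20, 4.715 and 6.87 CPM at 5.5 h. Its log2 difference at 3.5 h was −0.26 ± 0.22 (edgeR, unadjusted p = 0.259, adjusted p = 1), from −0.74 in number 3 and −0.01 and −0.02 in numbers 1 and 2.

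DDIT4, an inhibitor of the growth kinase mTORC1, had 78.2, 58.2 and 47.3 CPM at 0 h, 73.4, 80.2 and 68.1 CPM at 1.5 h, 65.3, 73.3 and 61.0 CPM at 3.5 h and 56.6, 71.3 and 63.9 CPM at 5.5 h. In numbers 1 and 2 each later library was above its own 0 h library, and in number 3 each was below. The log2 difference at 1.5 h was 0.27 ± 0.17 (edgeR, unadjusted p = 0.134, adjusted p = 1). PPP1R15A (GADD34, matched by ID), which restarts translation after stress, had 48.3, 49.3 and 56.9 CPM at 0 h, 60.6, 66.2 and 84.8 CPM at 1.5 h, 44.85, 66.9 and 98.9 CPM at 3.5 h and 45.45, 55.25 and 90.3 CPM at 5.5 h. Its 3 libraries at 1.5 h were all above the 3 at 0 h, a log2 difference of 0.45 ± 0.29 (edgeR, unadjusted p = 0.153, adjusted p = 1). At 3.5 and 5.5 h the differences were 0.45 ± 0.29 and 0.31 ± 0.29, and number 3 lay below its 0 h library at both times.

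Genes of the unfolded protein response group differed from 0 h by at most 0.35 on the log2 scale at any time, and no difference passed the test. HSPA5 (ENSOARG00000012928, chromosome 3, 10721674 to 10725535) had 896, 688 and 563 CPM at 0 h, 830, 878 and 578 CPM at 1.5 h, 1120, 831 and 604.5 CPM at 3.5 h and 860.1, 939 and 560.2 CPM at 5.5 h. Number 2 was the lowest at each time and the times overlapped. HSPA5 averaged 852 ± 258 CPM at 3.5 h and 715 ± 168 CPM at 0 h (SD, n = 3 each), a log2 difference of 0.25 ± 0.27 that was positive in 3 of 3 same-number pairs (edgeR, unadjusted p = 0.376, adjusted p = 1).

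ATF6 had 62, 41.8 and 47.99 CPM at 0 h, 55.2, 32.3 and 55.0 CPM at 1.5 h, 56.3, 42.3 and 47.97 CPM at 3.5 h and 45.55, 49.2 and 50.7 CPM at 5.5 h. XBP1 (matched by ID) had 151, 124 and 109.7 CPM at 0 h, 122.7, 135 and 109 CPM at 1.5 h, 153, 125 and 112 CPM at 3.5 h and 146.5, 139 and 115 CPM at 5.5 h. Both genes overlapped between all times, with log2 differences from 0 h of −0.09 to −0.05 for ATF6 and −0.07 to 0.06 for XBP1. CALR had 914, 871 and 819 CPM at 0 h, 993.5, 865 and 732 CPM at 1.5 h, 1017, 857 and 733 CPM at 3.5 h and 943, 858.5 and 677 CPM at 5.5 h, with log2 differences of −0.07 to 0.00.

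SDF2L1, an ER protein that works with BiP, had the smallest p of its group at 5.5 h. It held 14.4, 22.1 and 16.1 CPM at 0 h, 16.1, 21.4 and 13.4 CPM at 1.5 h, 10.0, 21.6 and 13.6 CPM at 3.5 h and 10.9, 16.5 and 13.9 CPM at 5.5 h. The 5.5 h value was lower in 3 of 3 pairs, by a log2 difference of −0.35 ± 0.29 (edgeR, unadjusted p = 0.253, adjusted p = 1), and with the replicate block the unadjusted p was 0.0468 and the adjusted p 0.759. The remaining 7 members of the group, HSP90B1, HERPUD1, DNAJB9, DNAJC3, PDIA4, PDIA6 and EDEM1, had log2 differences from 0 h between −0.22 and 0.20 at all times.

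Heat shock genes had the smallest differences of the 3 groups. HSP90AB1 had 1957, 1794 and 1901 CPM at 0 h, 2137, 1786 and 1757 CPM at 1.5 h, 2234, 1781 and 1756 CPM at 3.5 h and 2339, 1812 and 1689 CPM at 5.5 h. HSP90AA1 had 2752, 2314 and 2402 CPM at 0 h, 2776, 2306 and 2306 CPM at 1.5 h, 2826, 2265 and 2354 CPM at 3.5 h and 2970, 2317 and 2145 CPM at 5.5 h. In both genes number 3 was the highest library at each time, and the log2 differences from 0 h were 0.01 to 0.05 for HSP90AB1 and −0.02 to 0.00 for HSP90AA1. HSPB1, a small heat shock protein, and BAG3, a cochaperone, lay within 92.3 to 116 and 77.75 to 102 CPM.

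HSF1 and DNAJB1, both matched by ID, had the smallest p of the group. HSF1 (ENSOARG00000014186, chromosome 9, 13577626 to 13595333) had 34.4, 32.3 and 31.2 CPM at 0 h, 33.4, 32.1 and 31.3 CPM at 1.5 h, 25.25, 30.7 and 26.45 CPM at 3.5 h and 27.1, 28.0 and 29.65 CPM at 5.5 h. All libraries at 3.5 and at 5.5 h were below the 3 at 0 h. The log2 difference was −0.25 ± 0.10 at 3.5 h (edgeR, unadjusted p = 0.0312, adjusted p = 1) and −0.21 ± 0.10 at 5.5 h (unadjusted p = 0.0632, adjusted p = 1), lower in 3 of 3 pairs at both times.

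DNAJB1, a cochaperone of HSP70 and a classical HSF1 target, had 191, 235 and 216 CPM at 0 h, 248, 259 and 229 CPM at 1.5 h, 209, 248 and 234.5 CPM at 3.5 h and 203, 218 and 223 CPM at 5.5 h. It was higher at 1.5 h in 3 of 3 pairs, by a log2 difference of 0.20 ± 0.10 (edgeR, unadjusted p = 0.0832, adjusted p = 1), although the libraries overlapped.

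Among the groups the ATF4 genes had the median farthest from that of all genes at 1.5, 3.5 and 5.5 h. Their median log2 difference from 0 h was −0.11, −0.16 and −0.22, with 10, 11 and 11 of 14 members below 0, while the median of all genes was 0.00 to 0.01. Over the 3 groups 8, 12 and 11 of 32 members lay above 0, against 50.4%, 51.1% and 52.2% of genes. All 3 pairs were higher in 1, 3 and 1 members (14.3%, 16.6% and 15.9% of genes) and lower in 3, 4 and 3 (13.7%, 16.2% and 15.1%). The unfolded protein response group had medians of −0.05, −0.05 and −0.06 and the heat shock group −0.02, 0.02 and 0.03. Within pairs the ATF4 group split by number. In number 3 its median was −0.64, −0.56 and −0.74 at the 3 times, in number 1 it was 0.29, 0.11 and 0.20, and in number 2 it was 0.12, 0.09 and 0.13. Leaving out the 0 h library numbered 3 turned the median of the ATF4 group to 0.20, 0.29 and 0.21, and that of the unfolded protein response group to 0.04, 0.10 and 0.06. That fit had no block for number and held number 3 at the later times only, so it mixes time with number. In numbers 1 and 2 alone, with the block, the ATF4 medians were 0.18, 0.11 and 0.15. Those of the unfolded protein response group were −0.07, −0.01 and −0.01. All comparisons with 0 h share the 0 h libraries.

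**Figure D4:**
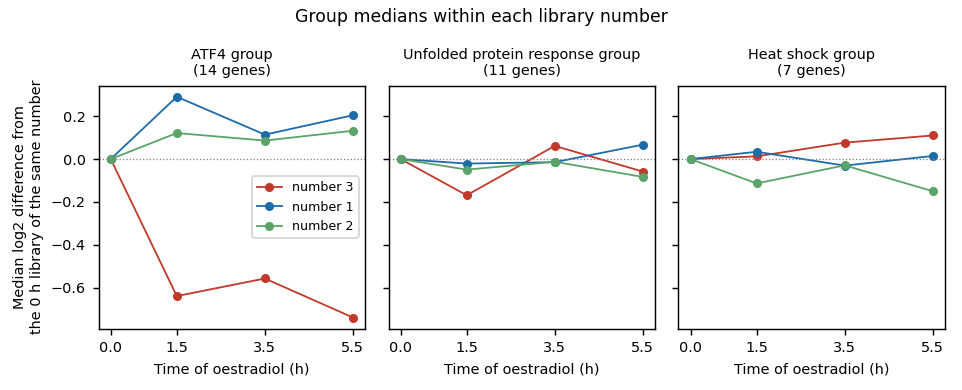
Median log2 difference of each group from the 0 h library of the same number, by time of oestradiol (h), with 1 line per number and the 0 h value set to 0. In the ATF4 group number 3 runs from −0.74 to −0.56 after 0 h and numbers 1 and 2 from 0.09 to 0.29, whereas in the other groups all lines stay between −0.17 and 0.11.

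The libraries numbered 1 and 2 were also tested alone, with the number as a block. No member passed the adjusted threshold at 1.5, 3.5 or 5.5 h, against 0.175%, 0.233% and 0.59% of genes called. Before adjustment 6, 6 and 7 of 32 members had p under 0.05, against 9.2%, 10.2% and 9.73% of genes. At all 3 times they included DDIT4, CHAC1, SLC3A2 and HERPUD1, an ER degradation factor, each higher than at 0 h. DDIT4 had the smallest adjusted p at 1.5 h, with log2 differences of 0.49 ± 0.08, 0.35 ± 0.08 and 0.37 ± 0.08 (edgeR, adjusted p = 0.0515, 0.118 and 0.102). HERPUD1 had 0.28 ± 0.07, 0.21 ± 0.07 and 0.33 ± 0.07 (edgeR, adjusted p = 0.187, 0.313 and 0.102). PPP1R15A had 0.50 ± 0.12, 0.62 ± 0.12 and 0.42 ± 0.12 (edgeR, adjusted p = 0.171, 0.0909 and 0.223). HSP90B1, the ER form of HSP90, was the exception in direction, at −0.25 ± 0.10 at 3.5 and at 5.5 h (edgeR, adjusted p = 0.413 and 0.432).

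The later times were compared with each other too. No member was called at 3.5 h against 1.5 h, 5.5 h against 1.5 h, 5.5 h against 3.5 h or among the 4 times, against 0% of genes in each, and none with the replicate block (0%, 0.00832%, 0% and 0.0166% of genes). Before adjustment none of the 32 members had p under 0.05 in these 4 tests, against 1.34%, 1.75%, 0.765% and 1.22% of genes. HSF1 was at 27.5 ± 2.87 CPM at 3.5 h and 32.25 ± 1.1 CPM at 1.5 h (SD, n = 3 each), a log2 difference of −0.23 ± 0.10 (edgeR, unadjusted p = 0.0412, adjusted p = 1). EDEM1, which marks misfolded ER proteins for degradation, was the only member with all libraries at 5.5 h above those at 1.5 h, a log2 difference of 0.31 ± 0.19 (edgeR, unadjusted p = 0.135, adjusted p = 1), against 3.47% of genes.

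More members passed a test between library numbers than between times. The comparison of numbers was added after the data were seen, when libraries numbered 3 already stood apart on the first principal component. It sets the 4 libraries numbered 3 against the 8 numbered 1 and 2 in an edgeR model that also holds time. The main tests of times set 3 against 3 libraries in a model without number. The 2 counts of members are therefore not on an equal footing. If a number marks 1 animal or culture, the 4 libraries are repeated samples of 1 source and the p-values do not cover the spread between sources. Of 32 members 21 were higher in number 3, against 19.9% of genes, and 2 were lower, against 19.1%. Higher were 7 of 14 in the ATF4 group, 9 of 11 in the unfolded protein response group and 5 of 7 in the heat shock group. In 10 members all libraries numbered 3 were above all others, against 8.25% of genes. Number 2 against number 1 called 0 members, against 0.2% of genes (24 genes, edgeR), or 5 lower members (2.3% of genes) when the 1.5 h library numbered 3 was left out of the fit. Numbers 1 and 2 were still not alike. The median log2 difference of number 2 from number 1 was −0.14 in the ATF4 group (10 of 14 lower). It was −0.23 in the unfolded protein response group (10 of 11 lower) and −0.03 in the heat shock group (5 of 7 lower). Over all genes it was −0.0019, with 49.6% of genes higher.

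PSAT1 averaged 116 ± 75.8 CPM in number 3, against 39.8 ± 4.48 in number 1 and 29.8 ± 3.77 in number 2 (SD, n = 4 each), a log2 difference of 1.60 ± 0.26 (edgeR, adjusted p = 0.00178). PHGDH averaged 29.0 ± 13.3 CPM in number 3, against 11.4 ± 1.76 and 10.5 ± 0.322 CPM in numbers 1 and 2, a log2 difference of 1.34 ± 0.22 (adjusted p = 0.00174). For SLC7A5 the log2 difference was 1.02 ± 0.16 (adjusted p = 0.00144), for ASNS 0.86 ± 0.18 (0.00634) and for ATF4 0.35 ± 0.11 (0.0267). MTHFD2, a mitochondrial one-carbon enzyme matched by ID, was higher by 0.54 ± 0.09 (0.00173).

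Over all members of a group, the median log2 difference between numbers was 0.26 in the ATF4 group, 0.33 in the unfolded protein response group and 0.23 in the heat shock group, against −0.01 over all genes. These medians, without the 0 h library numbered 3, were 0.04, 0.27 and 0.28, against −0.01. HSP90B1 averaged 1423 ± 180.3 CPM in number 3, against 1089 ± 49.1 and 786 ± 112 CPM in numbers 1 and 2 (SD, n = 4 each), a log2 difference of 0.62 ± 0.09 (edgeR, adjusted p = 0.000957). The disulfide isomerase PDIA4 averaged 190.2 ± 6.56 CPM in number 3, against 169 ± 4.74 and 133.5 ± 10.1 CPM, and differed by 0.34 ± 0.06 (adjusted p = 0.0017). HSPA5 differed by 0.41 ± 0.09 (0.0054), CALR by 0.28 ± 0.06 (0.00585) and XBP1 by 0.25 ± 0.06 (0.0138). In these genes number 2 was the low one. HSPA5 averaged 926 ± 132 CPM in number 3, against 834 ± 107 and 576 ± 20.2 CPM in numbers 1 and 2. At 1.5 and 5.5 h its library numbered 1 was above the one numbered 3. CALR averaged 967, 863 and 740 CPM and XBP1 143, 131 and 111 CPM in numbers 3, 1 and 2. XBP1 no longer passed without the 0 h library numbered 3, at 0.20 ± 0.07 (0.0625), or without the 3.5 h one, at 0.20 ± 0.07 (0.0745). ATF6 did not pass, at 0.26 ± 0.11 (0.0943), but did without the 5.5 h library numbered 3, at 0.38 ± 0.11 (0.0343).

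Among cytosolic and mitochondrial chaperones, HSP90AA1 averaged 2831 ± 97.6 CPM in number 3, against 2301 ± 23.9 and 2302 ± 112 CPM in numbers 1 and 2 (SD, n = 4 each), a log2 difference of 0.30 ± 0.05 (edgeR, adjusted p = 0.00236). HSPD1, the mitochondrial HSP60, differed by 0.47 ± 0.13 (0.0174). HSPD1 did not pass without the 3.5 h library numbered 3, at 0.36 ± 0.14 (0.0936), without the 5.5 h one, at 0.36 ± 0.14 (0.0896), or without all 0 h libraries, at 0.50 ± 0.16 (0.058). HSPB1, BAG3, DNAJB1 and HSF1 did not pass, with log2 differences of −0.13 to −0.02. Without the 1.5 h library numbered 3, HSPB1, BAG3 and DNAJB1 were lower in number 3, by −0.19 ± 0.06, −0.17 ± 0.06 and −0.19 ± 0.06 (adjusted p = 0.0315, 0.0493 and 0.019).

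Lower in number 3 were SESN2, a stress-induced inhibitor of mTORC1, SDF2L1 and PPP1R15A. SESN2 averaged 9.29 ± 2.57 CPM in number 3, against 12.4 ± 1.76 and 16.4 ± 1.87 CPM in numbers 1 and 2 (SD, n = 4 each), a log2 difference of −0.65 ± 0.14 (edgeR, adjusted p = 0.00696). SDF2L1 differed by −0.42 ± 0.12 and PPP1R15A by −0.48 ± 0.11 (edgeR, adjusted p = 0.018 and 0.0101). For SDF2L1 number 1 was the high one, with 20.4 ± 2.63 CPM against 14.2 ± 1.25 in number 2 and 12.9 ± 2.88 in number 3. For PPP1R15A it was number 2, with 82.7 ± 18.2 CPM against 59.4 ± 8.57 in number 1 and 49.8 ± 7.35 in number 3. SESN2, SDF2L1 and PPP1R15A were also lower without the 0 h library numbered 3, at −0.72 ± 0.17, −0.43 ± 0.14 and −0.60 ± 0.12 (adjusted p = 0.0154, 0.0469 and 0.00762). SDF2L1 did not pass without the 3.5 h library numbered 3, at −0.31 ± 0.12 (0.0833), without the 5.5 h one, at −0.40 ± 0.14 (0.0642), or without all 0 h libraries, at −0.43 ± 0.15 (0.0696).

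Without the 0 h library numbered 3, 14 of 32 members were higher in number 3 (15.1% of genes) and 2 lower (14% of genes). The 14 held 4 of the ATF4 group (ASNS, PSAT1, PHGDH and SLC7A5), 6 of the unfolded protein response group and 4 of the heat shock group. PSAT1 then differed by 1.20 ± 0.21 (edgeR, adjusted p = 0.00497) and HSP90B1 by 0.67 ± 0.10 (0.00275). ATF4 no longer passed, at 0.18 ± 0.07 (0.0857), nor did PSPH, at 0.26 ± 0.10 (0.0691), or HERPUD1, at 0.27 ± 0.14 (0.188), and DNAJB9, EDEM1, SHMT2 and HSPH1 were lost as well (adjusted p = 0.159, 0.0741, 0.0741 and 0.0552). Leaving out the 1.5 h library numbered 3 gave 20 members higher (23.5% of genes) and 5 lower (24.2%), leaving out the 3.5 h one gave 13 (11.7%) and 1 (11.4%), and leaving out the 5.5 h one gave 15 (12.2%) and 1 (12.3%). With all 0 h libraries left out, 12 members were higher (12.9% of genes) and 1 lower (11.2% of genes). ASNS, PSAT1, PHGDH, SLC7A5, HSPA5, HSP90B1, PDIA4, PDIA6, CALR, HSP90AA1 and HSP90AB1 were called higher, and SESN2 lower, in each of these fits.

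**Figure D5:**
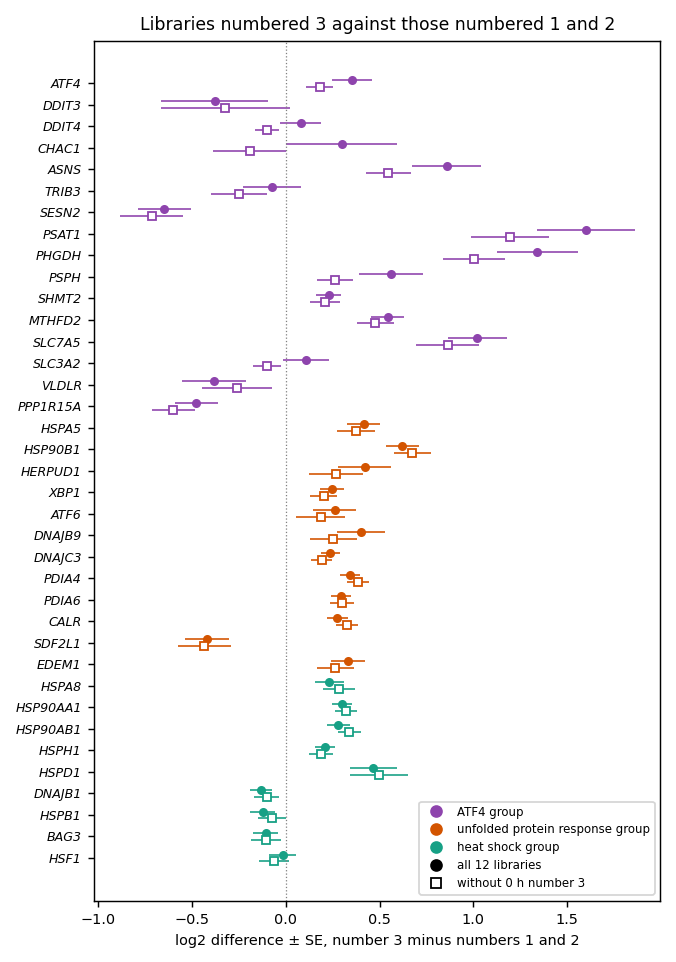
Log2 difference of libraries numbered 3 minus those numbered 1 and 2, with bars of 1 SE, from all 12 libraries (filled circles) and without the 0 h library numbered 3 (open squares). PSAT1 lies farthest to the right, at 1.60 and 1.20, and SESN2 farthest to the left, at −0.65 and −0.72.

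Marker sums of several cell types were set beside these differences. Fibroblast markers found (7 of 8) summed to 1179 to 2276 CPM in number 3, against 2066 to 2801 CPM in numbers 1 and 2, with LUM at 0 in at least 1 library and VIM the most abundant at 1163 to 2710 CPM. Smooth muscle markers (5 of 5) summed to 196 to 1908 CPM in number 3, against 795 to 1544 CPM, so that the first range encloses the second, and 0 of 3 tested markers were called. The high value there was the 1.5 h library, DES stayed at or below 0.189 CPM, and TAGLN made up most of the sum. Endothelial markers (4 of 4) summed to 66.1 to 111 CPM in number 3, against 149.5 to 221 CPM, with PECAM1 at 0 to 0.536 CPM and no overlap. Secretory oviduct markers (4 of 4) summed to 18094 to 20020 CPM in number 3, against 20332 to 24617 CPM, again with no overlap, and SPP1 made up most of the sum at 17925 to 24397 CPM. Epithelial markers summed to 15026 to 16427 CPM in number 3, against 12802 to 16116 CPM. Single epithelial markers went both ways, with 2 of 6 tested called lower in number 3 and 3 called higher. Called lower were 3 of 5 tested fibroblast, 2 of 2 endothelial and 1 of 3 secretory markers, with 0 called higher. Among all genes 19.1% were called lower and 19.9% higher. The part of these markers in the stress genes was not tested, and in such mixed RNA fewer cells of a type and less RNA per cell cannot be told apart.

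Other genes of the same pathways were read from 3 further lists. In the list of other integrated stress response genes, 0 of 33 were called against 0 h at any time, where 0% of all genes were. Above 0 h lay 10, 9 and 7 of them at 1.5, 3.5 and 5.5 h, against 50.4%, 51.1% and 52.2% of genes. These comparisons share the 0 h library numbered 3. SLC38A2, a glutamine carrier, had 112, 80.9 and 94.7 CPM at 1.5 h and 241, 119 and 115 CPM at 0 h, with each library at 1.5 h below all at 0 h, a log2 difference of −0.72 ± 0.30 (edgeR, unadjusted p = 0.0366, adjusted p = 1). NUPR1, a small stress-induced nuclear protein, had 5.04, 4.74 and 3.31 CPM at 1.5 h and 25.6, 4.64 and 4.64 CPM at 0 h, a log2 difference of −1.41 ± 0.64 (unadjusted p = 0.0487, adjusted p = 1). Its difference rests on the 0 h library numbered 3. PYCR1, which makes proline, differed by −0.40 ± 0.22 at 3.5 h, EIF4EBP1, a brake on translation, by −0.23 ± 0.11 at 3.5 h and −0.24 ± 0.11 at 5.5 h, and ATF3, a stress transcription factor, by 0.37 ± 0.20 at 5.5 h (adjusted p = 1 each).

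In the list of other ER folding and degradation genes, 0 of 24 were called at any time, where 0% of all genes were. Above 0 h lay 12, 13 and 9 of them at 1.5, 3.5 and 5.5 h, against 50.4%, 51.1% and 52.2% of genes. HSPA13, an ER-associated member of the HSP70 family, had 54.1, 50.9 and 49.9 CPM at 5.5 h and 42.3, 41.75 and 40.3 CPM at 0 h, a gap with no overlap. Its log2 difference was 0.29 ± 0.08 at 3.5 h (edgeR, unadjusted p = 0.00433, adjusted p = 1) and 0.32 ± 0.08 at 5.5 h (unadjusted p = 0.00246, adjusted p = 1). CREB3L2, a transcription factor of the ER membrane, differed by −0.31 ± 0.12 at 5.5 h (unadjusted p = 0.0308, adjusted p = 1), ERO1B, an ER oxidase, by 0.46 ± 0.27 at 1.5 h and DERL2, of the degradation channel, by 0.18 ± 0.09 at 3.5 h. Of the other chaperone genes 0 of 26 were called at any time, and 12, 19 and 17 lay above 0 h, against the same shares of genes. The J-domain proteins DNAJB4, at 0.28 ± 0.18, 0.35 ± 0.18 and 0.34 ± 0.18, DNAJA2, at 0.20 ± 0.12 at 3.5 h, and DNAJB6, at 0.11 ± 0.10 at 5.5 h, and the HSP110 family member HSPA4L, at 0.38 ± 0.31 at 1.5 h, had the smallest p.

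Between numbers these lists held many calls. Higher in number 3 were 19 of 33 other integrated stress response genes, 9 of 24 other ER genes and 19 of 26 other chaperones, against 19.9% of genes, and 1 of each list was lower, against 19.1%. Without the 0 h library numbered 3 the counts were 17 higher and 2 lower, 9 and 1, and 15 and 0, against 15.1% and 14% of genes. CRYAB, a small heat shock protein, differed by 0.90 ± 0.07 (edgeR, adjusted p = 8.8e-05), CHORDC1, an HSP90 cochaperone, by 0.61 ± 0.08 (0.000743), EPRS, a transfer RNA synthetase, by 0.49 ± 0.06 (0.000668), ALDH18A1, a proline enzyme, by 0.41 ± 0.05 (0.000511), the ER chaperone CANX by 0.38 ± 0.06 (0.00112) and the secreted ER stress factor MANF by 0.37 ± 0.06 (0.00166). These 6 genes differed, without the 0 h library numbered 3, by 0.37 to 0.90, with adjusted p of 0.000713 to 0.00762. Among genes named after their values were seen, PCK2, a mitochondrial enzyme, had 145 CPM in the 0 h library numbered 3 and 29.8 to 108 CPM in the other 11. STC2, a secreted glycoprotein, had 10.3 CPM there and 0.328 to 3.82 CPM in the others.

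The authors' deposited comparison tables carry a yes or no flag for each gene. In the authors' deposited tables PSAT1 was the only member flagged at 1.5 h (log2 ratio −1.36, p = 0.0154, q = 1), where 0.671% of genes were, and no member was flagged at 3.5 h (0.322% of genes) or 5.5 h (0.251%). No member had a q-value under 0.05 in the authors' deposited tables. The authors' deposited enrichment tables mark both PSAT1 and SLC7A11 as down at 1.5 and 5.5 h. They list PSAT1 with a log2 ratio of −1.39 at 1.5 h and −1.40 at 5.5 h, and SLC7A11 with −1.21 and −1.75. The comparison tables hold other ratios, −1.04 for PSAT1 at 5.5 h and −1.67 and −2.31 for SLC7A11.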

How the data were processed

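Total RNA was taken with Trizol and sequenced as Illumina libraries, per the labels' protocols. TopHat2 2.0.9 and Cufflinks are named without a role in the submitters' processing notes, and no source used here names the genome build, the strand setting or the counter. The gene table, per the file headers, has the authors' count and FPKM for each gene in each library, and their deposited comparison tables hold a log2 ratio of FPKM with a p-value and q-value from an unstated test. There are 42 other columns of per-sample values, left unused.

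Counts were tested with edgeR 4.0.16 (limma 3.58.1, R 4.3.3): TMM scaling, a model of the 4 times over 12 libraries, quasi-likelihood tests of 12025 genes averaging 1 FPKM or more and Benjamini-Hochberg adjustment, called under 0.05. CPM uses TMM-scaled library sizes. DESeq2 1.42.0, limma on log2(FPKM + 1) or log2(FPKM + 0.1), other scalings and filters and left-out libraries were alternatives. Each pair of libraries of 1 time had a chi-square of 34.9 to 267 times its degrees of freedom, and none was a duplicate. Numbers were taken as pairs because all 18 same-number correlations of deviations from the group mean, 0.218 to 0.705, passed 0.1 (36 others: −0.60 to 0.331). That pairing comes from the data, since the labels do not say what a number marks.

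The members and gene lists were chosen with earlier results of these data known. Values per library are given for ATF4, DDIT3, XBP1, ATF6, HSPA5 and HSF1, for members called between times (none), for the 3 smallest p at each time against 0 h and for the 2 highest mean FPKM per group. From the other pathway lists come genes called and the 2 smallest p per list and time. Genes named outside that rule, and the comparison of numbers, were chosen after their values were seen. Sequences are not used here.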

Additional observations from a re-analysis of the deposited data

How the results depend on the processing

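No member was called in any comparison of times under any of the 26 settings tried. With the replicate block, edgeR called 1 gene at 1.5 h and 0 at 3.5 and 5.5 h against 0 h, 1 at 5.5 h against 1.5 h and 2 among the 4 times. The block changed no call of a member. In numbers 1 and 2 alone with the block, the counts were 21, 28 and 71 against 0 h, 1 at 5.5 h against 1.5 h and 30 among the times. DESeq2 called 1, 6 and 7 genes against 0 h, 3 at 3.5 h and 2 at 5.5 h against 1.5 h, 1 at 5.5 h against 3.5 h and 6 among the times. DESeq2 with the replicate block gave 96, 34, 32, 7, 9, 4 and 76 in that order. A blocked edgeR fit lacking the T1 library numbered 3, added after seeing the data, gave 4 at 1.5 h, 12 at 5.5 h, 1 at 3.5 h against 1.5 h and 3 among the times. The 2 groups fitted alone gave 1 gene at 5.5 h against 3.5 h.

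Leaving out 1 library at a time, without the block, genes called ranged over 0 to 1 at 1.5 h, 0 to 0 at 3.5 h and 0 to 1 at 5.5 h against 0 h, 0 to 1, 0 to 2 and 0 to 1 between later times and 0 to 2 among the times. Medians ranged, at 1.5, 3.5 and 5.5 h, over −0.29 to 0.20, −0.31 to 0.29 and −0.26 to 0.21 in the ATF4 group, −0.14 to 0.0371, −0.13 to 0.11 and −0.15 to 0.073 in the unfolded protein response group and −0.09 to 0.03, −0.0905 to 0.0576 and −0.07 to 0.08 in the heat shock group. The median of the unfolded protein response group at 3.5 h was 0.0153 with the block and no 0 h library numbered 3, and that of the heat shock group at 3.5 h −0.0589 in numbers 1 and 2 alone. Of the log2 differences of single genes under other settings, 2752 moved by less than 1 SE and 122 by more, 42 of them without the 0 h library numbered 3 and 32 in numbers 1 and 2 alone; the cause was not tested. For number 3 against numbers 1 and 2, leaving out 1 library numbered 3 gave 1401 to 2827 genes higher and 1369 to 2910 lower, with 13 to 20 members higher and 1 to 5 lower. Without the 0 h libraries there were 1549 and 1342 genes and 12 and 1 members.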
